A study of Arabidopsis thaliana with 12 samples.

Results

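Transcript levels of 6 Arabidopsis thaliana genes that encode enzymes of amino acid synthesis and sulphur assimilation were compared between plants in normal light and plants that had recovered from light stress. The genes were HISN4 (AT4G26900), the argininosuccinate lyase gene ASL (AT5G10920), the dihydroxyacid dehydratase gene DHAD (AT3G23940), the ketol-acid reductoisomerase gene KARI (AT3G58610), the ATP sulphurylase gene APS4 (AT5G43780) and the cystathionine beta-lyase gene CBL (AT3G57050). They were chosen by locus, with earlier results of these data known. Every probe paired with 1 of these genes and no other was taken. This gave 1 probe per gene, so 6 of the 689 genes with a probe of their own and 6 of the 3439 probes on the array.

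All samples were wild type of the ecotype Columbia 0 and were measured on arrays from total RNA. The 6 control samples came from plants in light of 80 µE. The 6 recovered samples came from plants given 1000 µE for 1 h and then 80 µE for 48 h. The titles place the controls at the start, and no label names a control harvested after the same time, so the stress cannot be told apart from plant age and hour of harvest. The part of the plant, the age and the number of plants per sample are not given in the sources used here.

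Plants make most amino acids in plastids, and these enzymes stand at different points of that network. HISN4 is the bifunctional glutamine amidotransferase and cyclase that closes the imidazole ring of histidine, and ASL releases arginine and fumarate in the last step of arginine synthesis. KARI and DHAD catalyse successive steps that valine, isoleucine and leucine synthesis share. ATP sulphurylase, of which APS4 is an isoform, activates sulphate at the entry to cysteine synthesis. CBL splits cystathionine to homocysteine, the carbon and sulphur skeleton that is methylated to methionine. The location of these proteins was not measured here.

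The array values were intensities. They were quantile normalised between arrays and set to a floor of 0.0322, which is -4.95 on the log2 scale, and differences were tested with limma over 3177 probes, so each is relative to the common distribution of the arrays. The sums of the deposited intensities lay between 2874 and 3406, and between 82.3% and 93.1% of the probes were above the floor. The log2 medians differed more. They ran from -2.32 to -1.82 in the controls and from -1.23 to -1.13 in recovered 1, 2, 5 and 6. In recovered 3 and 4 they were -2.34 and -2.35. Quantile normalisation removes such shifts between arrays. Adjacent numbers (1 with 2, 3 with 4, 5 with 6) gave similar arrays. Pearson's r across probes was 0.854 to 0.939 between adjacent numbers, and 0.650 to 0.794 for the remaining sample pairs within a group. Whether they are repeat readings is not stated. If they are, the SDs, SEs and p-values from 6 samples per group are too small, so values with adjacent numbers averaged to 3 per group are given beside the results. Of 14 leaf photosynthesis markers, 4 had a probe of their own. Their log2 intensities ran from 0.29 for PRK to 5.24 for PSBW, far above the floor, and 0 of the 4 were called. None of 9 light-stress markers and none of 13 markers of epidermis, guard cells, vasculature and root had a probe of its own.

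Of the 6 genes 2 were called, both lower. HISN4 was 3.82-fold and ASL 2.31-fold lower in recovered samples. DHAD was 3.44-fold higher and did not pass the threshold, APS4 and CBL were 1.85-fold and 2.25-fold lower and did not pass, and KARI had a log2 fold change of -0.01. Calls were made where p, adjusted over all tested probes by Benjamini-Hochberg, was under 0.05. The share of calls was 2.17% over all probes, with 1.29% called lower and 0.881% called higher. The median log2 fold change was -1.03 over the 6 genes and 0.00 over all tested probes, of which the central 90% lay between -1.05 and 1.17. The 6 genes were chosen with earlier results of these data known, so neither the shares nor the medians test them as a set. When the replicate number was a block, or adjacent numbers were averaged, 0 of the 6 genes were called. The share of all probes called was 2.68% with the block and 0% with averaging.

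**Figure D1:**
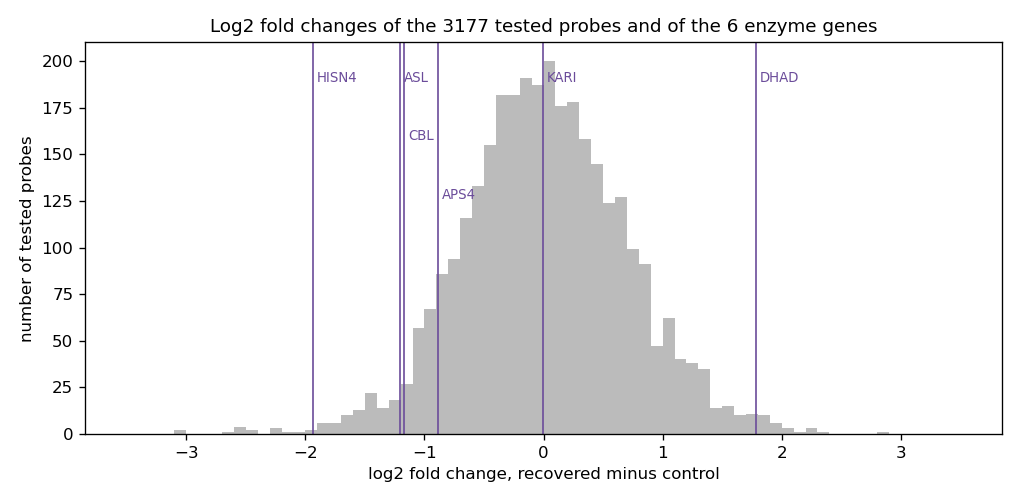
Log2 fold changes (recovered minus control, quantile-normalised values) of the 3177 tested probes as a histogram, with bin height as the number of probes and a line for each of the 6 enzyme genes. HISN4 at -1.93 and DHAD at 1.78 lie in opposite tails, ASL at -1.21, CBL at -1.17 and APS4 at -0.89 lie on the lower side, and KARI at -0.01 lies at the centre.

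HISN4, the only gene of histidine synthesis measured, fell, and its fall was uneven among the samples. In RNA of whole samples, fewer cells of a type and less transcript per cell cannot be told apart. Its log2 intensity in the controls ran from -0.86 to 0.13 with a median of -0.27, and in the recovered samples from -3.32 to -0.84 with a median of -2.58. The groups overlapped by 0.02 at their edges, because recovered 4 at -0.84 lay just above control 3 at -0.86. The means were -0.34 ± 0.44 (SD, n = 6) in control and -2.27 ± 1.09 (SD, n = 6) in recovered samples, a log2 fold change of -1.93 (SE 0.45) or 3.82-fold lower (95% interval 1.94 to 7.53, limma adjusted p = 0.0450).

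The size of the HISN4 change depended on the replicate number. In samples 1 and 2 the recovered value lay 3.34 and 2.89 below the control of the same number, and in samples 5 and 6 it lay 2.34 and 2.85 below. In samples 3 and 4 it lay only 0.18 and 0.02 below. In that pair the controls, at -0.86 and -0.82, were the lowest controls, and the recovered samples, at -1.04 and -0.84, were the highest recovered samples. The 3 mean changes of adjacent numbers spanned 3.02, a spread at least as wide as in 90.2% of tested probes, where the median probe had 1.35. HISN4 was no longer called when the replicate number was a block (adjusted p = 0.0716) or when adjacent numbers were averaged (SE 0.63, unadjusted p = 0.0151, adjusted p = 0.837). The same held when the deposited scaling was kept (log2 fold change -1.41, adjusted p = 0.0575). All tested probes then had a median of 0.47, and HISN4 minus that median was -1.88, against -1.94 in the main fit. Among 12 fits without a single sample the HISN4 call was made only without recovered 3 or recovered 4.

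After quantile normalisation ASL, at the end of arginine synthesis, was the only one of the 6 genes whose groups did not overlap. Groups did not overlap in 4.75% of all tested probes. In the deposited intensities the ASL groups overlapped, with control 3 at 0.652 and recovered 2 at 0.857. There HISN4 (lowest control 0.468, highest recovered sample 0.429) and DHAD (highest control 1.063, lowest recovered sample 1.130) did not overlap. The log2 values that follow are quantile normalised. The controls ran from -0.46 to 0.84 with a median of 0.27, and the recovered samples from -1.62 to -0.61 with a median of -0.91. The gap between control 3, the lowest control, and recovered 2, the highest recovered sample, was 0.15. The means were 0.25 ± 0.50 (SD, n = 6) and -0.96 ± 0.35 (SD, n = 6), a log2 fold change of -1.21 (SE 0.28) or 2.31-fold lower (95% interval 1.52 to 3.50, limma adjusted p = 0.0442).

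The pattern of ASL over the numbers resembled that of HISN4 with a smaller span. Its 3 mean changes spanned 1.02, at least as wide as in 36.1% of tested probes, where the median probe had 1.35. The recovered value lay 1.66 and 1.45 below the control in samples 1 and 2, 1.84 and 1.23 below in samples 5 and 6, and 0.46 and 0.60 below in samples 3 and 4. Again controls 3 and 4, at -0.46 and -0.13, were the lowest controls, while recovered 3 and 4, at -0.93 and -0.73, lay within the range of the other recovered samples. The ASL call was lost with the block (adjusted p = 0.0519), with adjacent numbers averaged (SE 0.45, unadjusted p = 0.0272, adjusted p = 0.837), with the deposited scaling kept (log2 fold change -0.90, adjusted p = 0.162) and with cyclic loess (adjusted p = 0.0603). On the deposited scaling, with a median of 0.47 for all tested probes, ASL minus that median was -1.37, against -1.21 in the main fit. Among 12 fits without a single sample the ASL call was made only without control 3. Without samples 3 and 4 of both groups HISN4 was at -2.85 (adjusted p = 0.00174) and ASL at -1.54 (adjusted p = 0.0160), in a fit that called 156 probes higher and 175 lower.

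**Figure D2:**
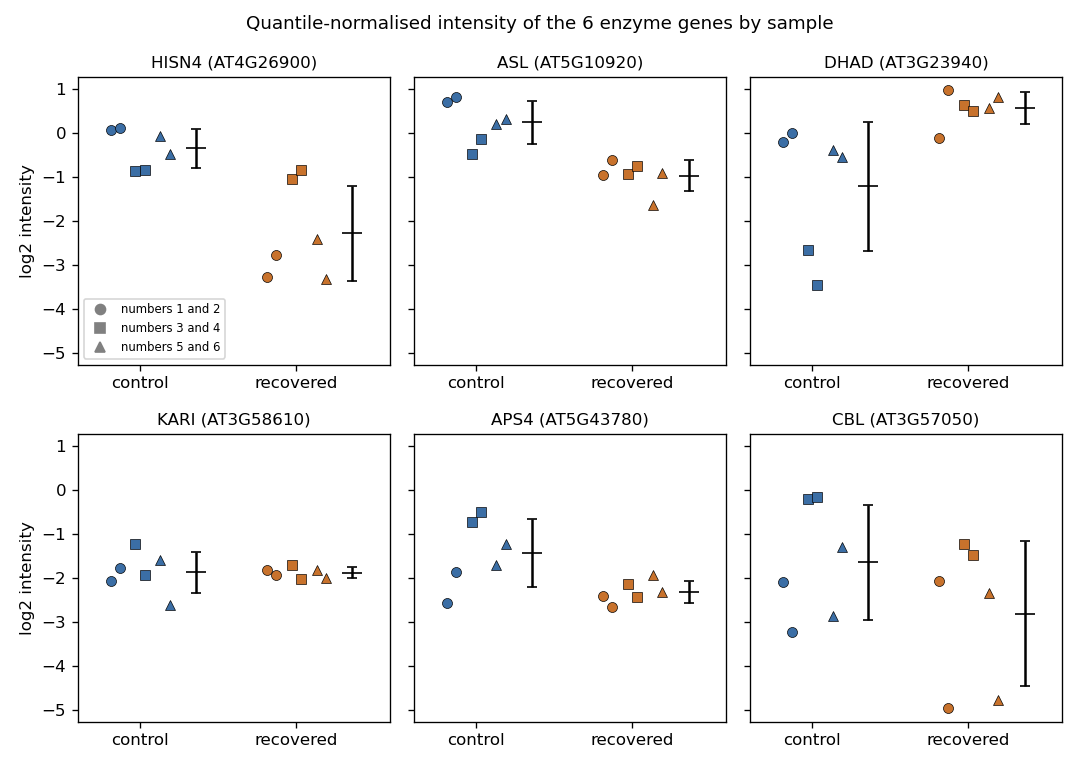
Log2 intensity (quantile normalised) of the 6 enzyme genes in each of the 6 control and 6 recovered samples, with marker shape for adjacent replicate numbers and a bar for the mean ± SD of 6 samples. The ASL groups are separate. Recovered HISN4 values of samples 3 and 4 lie by the lowest controls, with recovered 3 at -1.04 below every control. The DHAD controls 3 and 4 sit at -2.65 and -3.45.

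The branched-chain pathway was measured at successive steps that its amino acids share. Over all 12 samples the mean of DHAD was higher, without a call, and that of KARI hardly changed. DHAD, the dehydratase, ranged from -3.45 to 0.01 in the controls with a median of -0.46. In the recovered samples it ranged from -0.09 to 0.98 with a median of 0.62. The groups overlapped by 0.10, since recovered 1 at -0.09 lay below control 2 at 0.01. The means were -1.20 ± 1.46 (SD, n = 6) and 0.58 ± 0.37 (SD, n = 6), a log2 fold change of 1.78 (SE 0.57) or 3.44-fold higher (95% interval 1.48 to 8.03, limma adjusted p = 0.117).

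In DHAD the recovered samples were alike and the controls were not. Controls 3 and 4 lay at -2.65 and -3.45, and the other 4 controls between -0.54 and 0.01. The recovered value was 3.30 and 3.96 above the control in samples 3 and 4, 0.97 and 1.38 above in samples 5 and 6, and 0.11 and 0.97 above in samples 1 and 2. The 3 mean changes spanned 3.09, at least as wide as in 90.9% of tested probes. The log2 fold change was 0.86 without samples 3 and 4 of both groups and 1.08 with array weights. With adjacent numbers averaged its SE was 0.75 (unadjusted p = 0.0450, adjusted p = 0.837).

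KARI, the reductoisomerase one step before, ranged from -2.61 to -1.22 in the controls with a median of -1.84. It ranged from -2.01 to -1.68 in the recovered samples with a median of -1.86. The recovered samples lay inside the range of the controls. The means were -1.86 ± 0.47 (SD, n = 6) and -1.87 ± 0.13 (SD, n = 6), and the 95% interval of the log2 fold change was -0.54 to 0.52. The limma adjusted p was 0.994. The sign of this value was not settled. It was 0.56 on the deposited scaling, under which all tested probes had a median of 0.47, and between -0.16 and 0.12 in the fits without a single sample.

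The difference between these enzymes was examined within each sample, as the log2 intensity of DHAD minus that of KARI, so that a common factor of an array cancels. A scaling that depends on intensity, as quantile normalisation does, need not cancel. Only its change between groups is read here, since levels of different probes cannot be compared. The difference ranged from -1.53 to 2.07 in the controls and from 1.71 to 2.91 in the recovered samples. It rose by 1.79, from 0.66 ± 1.68 (SD, n = 6) to 2.45 ± 0.43 (SD, n = 6; exact two-sided permutation p = 0.00866 over 924 regroupings, 0.0173 adjusted over the 2 differences tested). This pair was chosen with its values known, so the p-value is a description and no independent support. The regroupings also treat adjacent numbers as separate samples.

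Controls 3 and 4, at -1.43 and -1.53, stood far below the other controls, which lay between 1.20 and 2.07. Without samples 3 and 4 of both groups the difference rose by 0.73 (exact permutation p = 0.114, adjusted p = 0.229), from 1.73 to 2.46. An exact sign-flip test that pairs the numbers gave p = 0.0625 (adjusted p = 0.125). With adjacent numbers averaged the permutation p was 0.1, the smallest that 3 against 3 allows. With the p of the other difference as measured, none of these 3 tests could have passed after adjustment. The smallest adjusted p was then 0.0571 for 4 samples against 4, 0.0625 for the pairing and 0.2 for 3 against 3. Before adjustment the smallest p was 0.0286 for 4 against 4, so the permutation p of 0.114 was not at its limit. It was 0.03125 for the pairing. With the deposited scaling kept or array medians aligned the permutation p was 0.0758 for a rise of 1.62 (adjusted p = 0.152). Both scalings give the same difference here, because they differ only by a factor per array. Without recovered 2, 3, 4, 5 or 6 alone the adjusted p lay between 0.0563 and 0.0779. The difference passed without recovered 1 or any single control, with cyclic loess (adjusted p = 0.0216) and with the floor at the 20th percentile (0.0173).

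**Figure D3:**
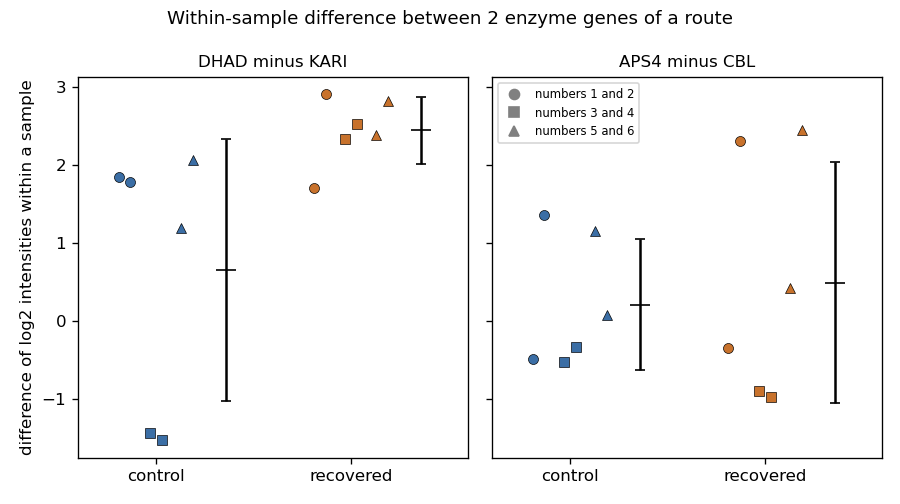
Within-sample difference of log2 intensities for DHAD minus KARI and for APS4 minus CBL in each control and recovered sample, with marker shape for adjacent numbers and a bar for the mean ± SD of 6 samples. The DHAD minus KARI values of controls 3 and 4 are at -1.43 and -1.53, while the other 10 samples lie between 1.20 and 2.91.

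The sulphur route was measured at its entry and at its last step before methionine synthase, and neither gene passed the threshold. APS4 ranged from -2.57 to -0.48 in the controls with a median of -1.45. It ranged from -2.65 to -1.91 in the recovered samples with a median of -2.35. After quantile normalisation the groups overlapped only through control 1 at -2.57. The other 5 controls, from -1.85 upward, then lay above every recovered sample. The means were -1.42 ± 0.77 (SD, n = 6) and -2.30 ± 0.26 (SD, n = 6), a log2 fold change of -0.89 (SE 0.34, 95% interval -1.62 to -0.16, limma adjusted p = 0.175).

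After quantile normalisation APS4 was another gene in which the recovered samples were alike. Controls 3 and 4 stood out, here at the upper end at -0.72 and -0.48. The recovered value lay 1.41 and 1.95 below the control in samples 3 and 4 and 0.23 and 1.11 below in samples 5 and 6. In sample 1 it was 0.17 above and in sample 2 it was 0.80 below. The log2 fold change was -0.49 without samples 3 and 4 of both groups. It was -0.39 on the deposited scaling, with the same median of 0.47 for all tested probes. With adjacent numbers averaged the SE was 0.51 (unadjusted p = 0.117).

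CBL was the least reproducible of the 6 genes. It ranged from -3.21 to -0.15 in the controls with a median of -1.68. In the recovered samples it ranged from the floor of -4.95 to -1.23 with a median of -2.19. Only recovered 2 lay at the floor, and recovered 6 at -4.76 was close to it. The means were -1.63 ± 1.31 (SD, n = 6) and -2.80 ± 1.65 (SD, n = 6), a log2 fold change of -1.17 (SE 0.77, 95% interval -2.83 to 0.49, limma adjusted p = 0.438).

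Samples with adjacent numbers differed in CBL by 1.38 on average, against 0.31 to 0.44 in the other 5 genes and a median of 0.44 over all tested probes. Recovered 1 and 2 were 2.90 apart. The recovered value lay 1.74, 1.03, 1.31 and 3.48 below the control in samples 2, 3, 4 and 6, and 0.03 and 0.51 above it in samples 1 and 5. With the floor at the 20th percentile the log2 fold change was -0.61, without recovered 2 it was -0.74, and with the deposited scaling kept it was -0.68. Under that scaling, with a median of 0.47 for all tested probes, CBL minus the median was -1.15, against -1.17 in the main fit.

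The difference of APS4 minus CBL within a sample ranged from -0.52 to 1.37 in the controls and from -0.97 to 2.45 in the recovered samples. Its change of 0.28 did not pass (exact two-sided permutation p = 0.690, and 0.690 adjusted over the 2 differences). The sign of the change was not settled, with -0.28 where the floor was at the 20th percentile, -0.08 without recovered 2 and -0.11 without recovered 6.

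Across the 6 genes the recovered sample lay on the same side of the control of its number 6 times out of 6 for HISN4 and ASL, which were below, and for DHAD, which was above. Over all tested probes 9.88% lay below and 8.66% above in 6 of 6, or 18.5% in either direction. If adjacent numbers are repeat readings, these 6 pairs hold only 3 comparisons. APS4 lay below in 5 of 6, and CBL and KARI in 4 of 6. These are quantile-normalised values. In the deposited intensities APS4 and KARI lay above the control in samples 1, 2, 5 and 6.

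The changes in samples 3 and 4 stood apart most in HISN4 and DHAD. The 3 mean changes spanned less in the others. Their spread reached percentile 36.1 for ASL, 11.4 for KARI, 50.6 for APS4 and 17.2 for CBL among tested probes. Controls 3 and 4 both lay outside the range of the other 4 controls in 5 of the 6 genes, below it in HISN4, ASL and DHAD and above it in APS4 and CBL. This held for 46.7% of all tested probes, so it was common on these arrays. Recovered 3 and 4 both lay outside the range of the other recovered samples in 2 of the 6 genes, HISN4 and CBL, above it in each, against 50.4% of all tested probes. Controls 1 and 2 did so in 4 of the 6 genes, against 30% of all tested probes, above the others in HISN4, ASL and DHAD and below them in APS4. The part that these samples have in the differences between groups was tested only by leaving them out, as given with each gene.

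**Figure D4:**
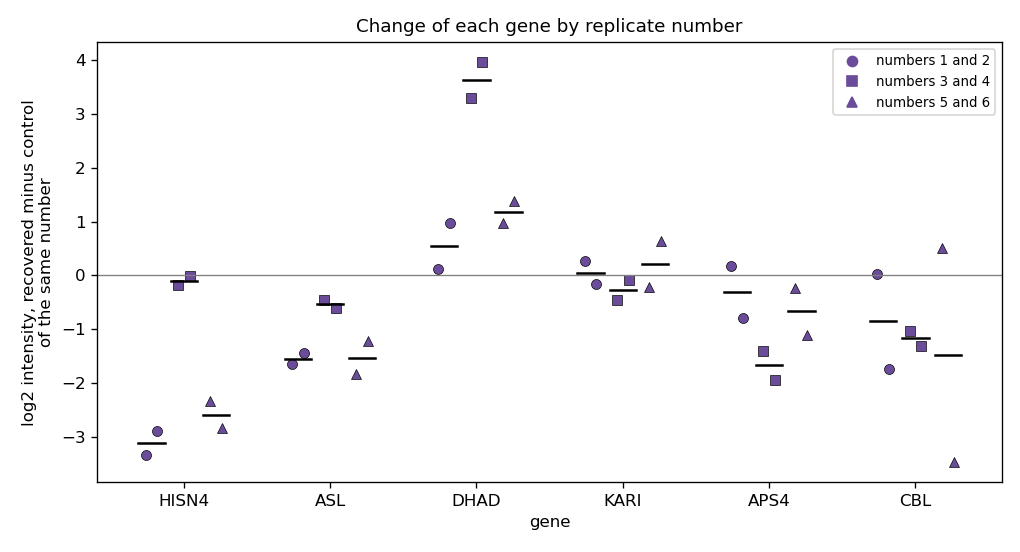
Log2 intensity of each recovered sample minus that of the control of the same number for the 6 enzyme genes, with marker shape for adjacent numbers and a line for the mean of each adjacent pair. HISN4 changes little in samples 3 and 4 (mean change -0.10, against -3.11 and -2.59), DHAD changes most there (3.63, against 0.54 and 1.18), and KARI stays between -0.28 and 0.21 in all 3 pairs.

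The other genes of these pathways were little covered. The 8 lists of amino acid synthesis and sulphur genes held 159 loci, of which 7 had a probe of their own, namely the 6 genes above and AT3G53580. A further 10 loci shared a probe with other genes and are not read here. Of the 7 tested, 0 were called higher and 2 lower, both described above. Histidine synthesis was measured at 1 of 11 loci, arginine synthesis at 1 of 13, branched-chain synthesis at 2 of 20, sulphate uptake to cysteine at 1 of 27, methionine and glutathione at 1 of 17, and the aspartate family at 1 of 17. None of 29 loci of aromatic amino acids and none of 25 loci of nitrogen assimilation and related amino acids had one. The genes thus stand for single steps and not for their pathways.

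AT3G53580, entered in the aspartate family list as the diaminopimelate epimerase of lysine synthesis, was dim. It ranged from the floor of -4.95 to -2.70 in the controls and from the floor to -2.08 in the recovered samples. The means were -3.88 ± 0.98 (SD, n = 6) and -3.83 ± 1.32 (SD, n = 6), and the log2 fold change was 0.05 (SE 0.61, 95% interval -1.26 to 1.37, limma adjusted p = 0.974).

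For each gene the 3 probes with 1 gene whose pattern was most like it were named by Pearson's r of log2 intensity over the 12 samples, out of 628 tested probes of other loci. This r is a description only, since the 12 samples fall into 2 groups and adjacent numbers were close. HISN4 was most like AT2G36480 (r = 0.942), AT1G79480 (0.920) and AT4G18180 (0.865). ASL was most like CUTA (0.867), AT2G36480 (0.844) and AT1G62250 (0.838). AT2G36480, near the top for both, was called lower with a log2 fold change of -3.03 (limma adjusted p = 0.00591). A lower value follows in part from its being picked for likeness to HISN4 and ASL.

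DHAD was most like AT3G26580 (r = 0.965), AT1G72020 (0.963) and AT5G46560 (0.958). APS4 was most like AT4G20300 (0.940), GLDH (0.892), the last enzyme of ascorbate synthesis, and GH9B8 (0.888). CBL was most like LpxA (0.868), AT3G13120 (0.861) and AT1G21660 (0.831). KARI, which varied least, had the weakest matches, AT4G29750 (0.824), AT4G20820 (0.763) and AT1G06730 (0.693). Of these 17 genes, AT2G36480 was called and the others were not, where 2.17% of all tested probes were called.

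**Figure D5:**
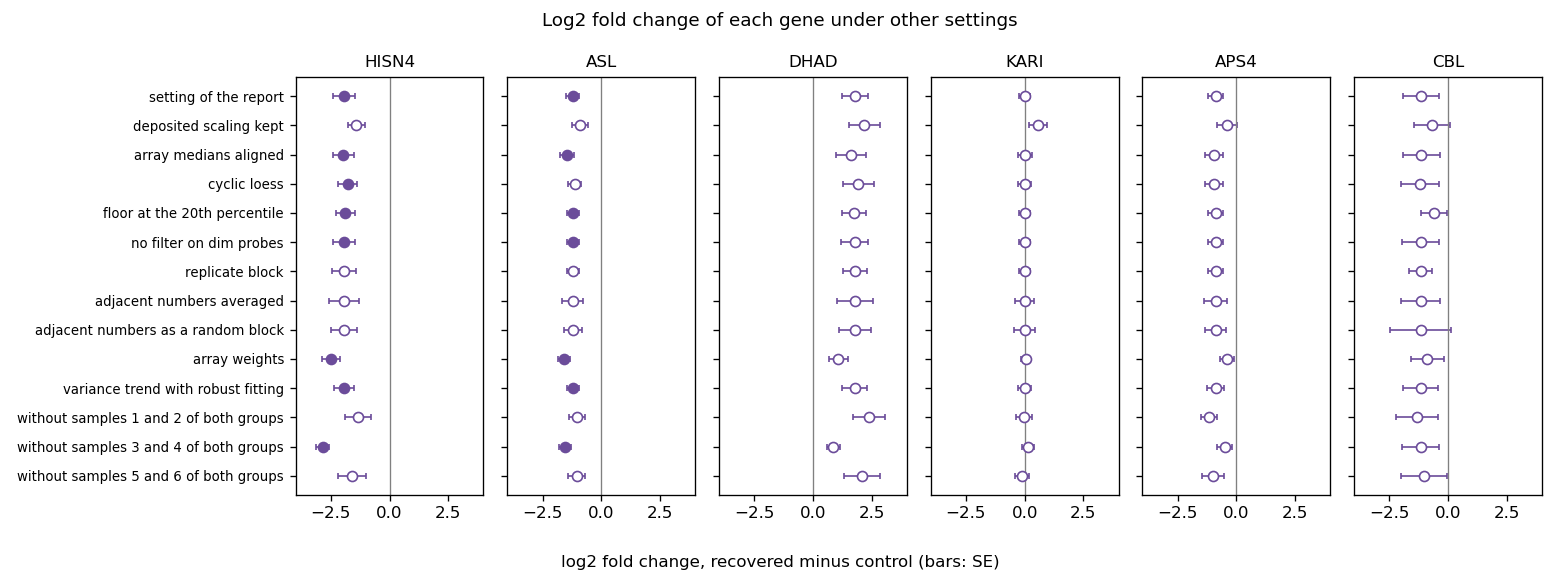
Log2 fold change (recovered minus control) of the 6 enzyme genes under the setting of the report and 13 others, with bars for the SE and filled points where the adjusted p was under 0.05. HISN4 and ASL stay below 0 and lose the call in several settings, DHAD stays above 0 and runs from 0.86 to 2.40, and KARI lies near 0 except with the deposited scaling kept, at 0.56.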

How the data were processed

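The authors deposited 1 linear intensity value per probe and sample, with 12 samples and 3439 probes. How the deposited intensity values were background corrected, scaled or averaged over spots is not given in the sources used here. The highest deposited intensity was 100 in 11 samples and 90.5 in recovered 4. No sample column was left unused (0). Groups and numbers came from the titles. Separate plants or cultures behind the samples of a group are not stated, so the p-values cover the spread among the arrays, possibly technical only. The number of arrays limits the precision.

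From these values, intensities were quantile normalised, values below 0.0322 (the 5th percentile of positive deposited values) were set to it, and log2 was taken. Probes with a deposited value above the floor in at least 6 samples were tested, 3177 in all. The two-sided, unpaired test was lmFit with eBayes from limma 3.58.1 (R 4.3.3), with Benjamini-Hochberg adjustment over all of them. It was tried on simulated data in which all samples were independent. That trial does not cover the likeness of adjacent numbers in these data. Differences between 2 genes were tested by exact permutation of the samples.

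Both groups carry the numbers 1 to 6. Deviations from the group means of same-numbered samples correlated at 0.111 to 0.487, and 12 of 12 samples were best matched by their own number. The numbers were therefore taken as pairing the samples in the same-number changes, the replicate block and the sign-flip test. The main fit was unpaired, so its calls, SEs and intervals leave this pairing out. With the block 0 of the 6 genes were called. This pairing comes from the data.

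Names came from the platform's annotation (1 gene for 692 probes, several for 870, none for 1877) and the RefSeq table of assembly TAIR10.1, which lists ASL, DHAD, KARI and AT3G53580 by locus only. APS4 and other members of families may share a probe's signal. Sequences were not used here, so the planned search of promoters was not made. The text names the 6 genes, list members with a probe of their own (up to 4 a list) and the 3 most similar probes of each gene. The members and lists were chosen with earlier results of these data known. Alternatives covered scaling, floor, filter, block, averaging, weights, variance trend and left-out samples.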

Additional observations from a re-analysis of the deposited data

Results flagged for a closer look

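Dixon's test for a sample far from the rest of its group picked out 1 of 12 sets of values. Chance alone would pick out about 0.6 if the samples of a group were independent. It was ASL in recovered 5, with a log2 intensity of -1.62. The nearest recovered sample had -0.94, and that gap made up 0.673 of the range. Leaving recovered 5 out moved the log2 fold change of ASL to -1.07 and ended its call (limma adjusted p = 0.101). The test uses the gap to the nearest sample, so adjacent numbers that are alike can hide each other. DHAD controls 3 and 4, at -2.65 and -3.45, were not picked out.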

How the results depend on the processing

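HISN4, ASL, APS4 and CBL stayed below 0 and DHAD above 0 in all 32 other fits of each. In the fits without 1 or 2 same-numbered samples, the log2 fold change ran from -2.32 to -1.65 for HISN4, -1.36 to -1.07 for ASL, 1.33 to 2.12 for DHAD, -0.16 to 0.12 for KARI, -1.12 to -0.67 for APS4 and -1.51 to -0.71 for CBL. HISN4 was called in 10 of its 32 fits and ASL in 7, and the other 4 genes in 0. The replicate block, the averaging (with or without a block) and the random block left HISN4 at -1.93 and ASL at -1.21, both without a call, with adjusted p of 0.0716 and 0.0519, 0.837 and 0.837 (0.513 and 0.513), and 0.295 and 0.341. The deposited scaling, under which all tested probes had a median of 0.47, gave HISN4 -1.41 and ASL -0.90, with no call. Cyclic loess gave ASL -1.13, with no call. Without samples 1 and 2 of both groups HISN4 and ASL were at -1.34 and -1.03. Without samples 5 and 6 they were at -1.61 and -1.04, with no call in these fits of fewer samples. KARI changed sign to 0.56 with the deposited scaling, 0.0055 with array medians aligned, 0.039 with array weights and 0.13 without samples 3 and 4.

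The 28 higher and 41 lower probes became 29 and 6 (82.9% higher) with the deposited scaling, 17 and 54 (23.9% higher) with array medians aligned, 47 and 74 with the floor at the 20th percentile, 41 and 62 with no filter, 42 and 43 with the replicate block, 92 and 147 with array weights, and 43 and 66 with a variance trend. They became 6 and 7 at an adjusted p under 0.01, 0 and 0 with averaging, and 0 and 1 with the random block. Without samples 1 and 2 they were 7 and 8, without 3 and 4 156 and 175, and without 5 and 6 2 and 0. The fits without 1 or 2 same-numbered samples gave 6 to 30 and 4 to 38.

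The rise of DHAD over KARI was 1.62 with the deposited scaling or aligned medians, not past the threshold. It was 1.79 with the replicate block or averaging, 2.44 without samples 1 and 2 (adjusted p = 0.0571 by exact permutation), 0.73 without 3 and 4 and 2.20 without 5 and 6. With the p of the other difference as measured, the block, averaging and left-out pairs could not pass after adjustment. Their adjusted p-values therefore say nothing about stability. Without samples 3 and 4 the unadjusted permutation p was 0.114, where 0.0286 was the smallest possible. The rise was 1.35 to 2.07 without a single sample. The change of APS4 over CBL was -0.28 with the higher floor and -0.11 to 0.58 without a single sample. The cause of these shifts was not tested, apart from the smaller number of samples in some fits. Signal over the array background is not known.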
